A study of Mus musculus with 22 samples.

Results

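The levels of 8 genes of the mature pancreatic beta cell were followed in whole mouse pancreas. They are Slc2a2, G6pc2, Abcc8, Kcnj11, Slc30a8, Ero1lb, Mafa and Ucn3. Chosen by symbol, they are covered by 12 probes of the 30146 probes and 21450 gene symbols in the counts deposited. RNA was measured with TempO-Seq, a targeted assay that joins a pair of short probes hybridized side by side on a transcript and sequences the joined product. The female C57Bl/6 mice had received subcutaneous injections 2 times per week, from before mating until birth, of TCDD (a dioxin, a pollutant and ligand of the aryl hydrocarbon receptor) at 20 ng/kg per day or of corn oil as control. Pancreas was taken on the day of birth from dams and from 1 male and 1 female pup of each litter. By the labels there were 4 TCDD and 4 control dams, 4 TCDD and 3 control male pups, and 4 TCDD and 3 control female pups, 22 libraries in all.

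The stage labels conflict with stage genes, so the libraries were also divided into classes by their own counts. In 8 libraries the summed count of Pnlip, which encodes the fat-digesting lipase of mature acinar cells, was above that of Afp, a fetal plasma protein. These are called adult type here, and the other 14, with Afp above Pnlip, are called newborn type. The adult type held the libraries labelled TCDD dams 8 and 11, TCDD male pups 8, 10 and 11, TCDD female pup 6 and control dams 5 and 7. The newborn type held those labelled TCDD dams 6 and 10, TCDD male pup 6, TCDD female pups 8, 10 and 11, control dams 2 and 4 and all 6 control pups. The type went against the stage label in 8 libraries, and 6 of the 8 adult-type libraries carried the TCDD label, against 6 of the 14 newborn-type libraries. The genes and classes were chosen with the levels in these libraries known. Differences between the types are therefore a description with no test, and library names below are those of the labels.

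A beta cell couples blood glucose to insulin release. Glucose enters through a transporter and is phosphorylated, and its metabolism raises ATP, which closes potassium channels at the plasma membrane. The membrane then depolarizes, calcium enters and insulin granules are released. Beta cells of newborn rodents secrete insulin but respond poorly to glucose, and several of the genes described here are known to increase as the cells mature after birth. Slc2a2 encodes GLUT2, the glucose transporter of rodent beta cells and also of hepatocytes. G6pc2 encodes the islet glucose-6-phosphatase, which opposes the phosphorylation step. Abcc8 encodes SUR1 and Kcnj11 encodes Kir6.2, the regulatory and pore subunits of the ATP-sensitive potassium (KATP) channel. Slc30a8 encodes ZnT8, which loads zinc into insulin granules. Ero1lb encodes an oxidase of the endoplasmic reticulum (ER) that drives disulfide bond formation in proinsulin and other secreted proteins. Mafa is a transcription factor that activates insulin genes in mature beta cells, and Ucn3 is a peptide hormone known in mice as a late marker of beta cell maturation.

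The reference set of promoters held 4 of the 8 genes, and the 250 bases upstream of the start are shown for the 3 of them with counts in every newborn-type library. For G6pc2 the set lists 2 promoters, and the upstream one is shown and described. The sequences are from RefSeq, build GRCm38.p6. Capitals mark 3 searched motifs on either strand: TAAT, the core bound by homeodomain factors, CANNTG, the E-box bound by basic helix-loop-helix factors, and the ER stress element, which is CCAAT followed after any 9 bases by CCACG. Overlapping matches were each counted.
Slc2a2, chr3:28697653-28697902, plus strand: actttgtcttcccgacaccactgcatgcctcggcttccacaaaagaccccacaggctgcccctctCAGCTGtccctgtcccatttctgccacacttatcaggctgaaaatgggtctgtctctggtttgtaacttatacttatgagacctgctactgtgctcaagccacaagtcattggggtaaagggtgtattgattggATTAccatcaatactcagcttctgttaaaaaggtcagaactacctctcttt
G6pc2, chr2:69210823-69211072, plus strand: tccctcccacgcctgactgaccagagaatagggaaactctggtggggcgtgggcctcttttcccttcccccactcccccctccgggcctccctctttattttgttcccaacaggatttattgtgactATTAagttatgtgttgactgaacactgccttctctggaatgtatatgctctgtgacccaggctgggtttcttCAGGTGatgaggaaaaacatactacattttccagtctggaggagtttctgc
Ero1lb (Ero1b in RefSeq), chr13:12565633-12565882, plus strand: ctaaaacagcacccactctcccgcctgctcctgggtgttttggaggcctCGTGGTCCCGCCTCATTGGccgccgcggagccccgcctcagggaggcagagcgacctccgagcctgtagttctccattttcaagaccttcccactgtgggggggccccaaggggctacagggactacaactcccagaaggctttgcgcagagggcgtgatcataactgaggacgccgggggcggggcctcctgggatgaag

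The Slc2a2 and G6pc2 windows each held 1 TAAT and 1 CANNTG. The Ero1lb window held neither, and held 1 ER stress element. Among 32851 promoter windows of the same length, 54.9% held TAAT, 66.2% held CANNTG and 0.113% held the ER stress element. The GC content was 47.2% for Slc2a2, 50% for G6pc2 and 64.4% for Ero1lb, with a median of 52.4% over all windows. The MAF half-site TGCTGA, present in 16.1% of windows, was in none of these. A match describes the letters of a window, not binding.

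Library totals ranged from 11223816 to 34911410 counts, and levels below are counts-per-million of that total (CPM), with all probes of a gene added up. A floor of 3 counts stood at 0.0859 to 0.267 CPM and covers counting error only. Probes differ in efficiency, so levels are compared between libraries and not between genes. The 20 most abundant probes took 69.8 to 74.7% of counts in adult-type libraries and 47.1 to 59.6% in newborn-type libraries. On the log2(CPM + 1) scale the median gene with a mean of at least 1 CPM differed by -1.53 (adult type minus newborn type), and by -0.12 after TMM scaling, a shift of 1.41. Differences in CPM between types are to be read against that shift.

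Insulin transcripts themselves differed between the types. Summed Ins1 and Ins2 stood at 62.3 to 252 CPM in the adult type (median 112) and at 726 to 1599 CPM in the newborn type (median 1293), without overlap. After TMM scaling the types overlapped for insulin, with scaled levels of 152 to 484 in the adult type and 475 to 1048 in the newborn type. Within the adult type the highest library, control dam 7, had 4.04 times the insulin level of the lowest, TCDD dam 8. Of 5 defining beta cell markers, Pdx1 had no count in any library, which does not show that its transcript was absent. The other markers, Ins1, Ins2, Iapp and Nkx6-1, were lower in the adult type without overlap. Among all genes, 40.8% of those with a count and 76.2% of those with a mean of at least 1 CPM were lower in that way. Iapp, the amyloid peptide co-secreted with insulin, had a median of 17.1 CPM in the adult type and 192 CPM in the newborn type. In whole tissue, fewer beta cells and less RNA per beta cell cannot be told apart. Each gene is therefore given in CPM and also per 1000 summed Ins1 and Ins2 counts.

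Slc2a2, the glucose transporter gene, was near the floor in the adult type and measured in every newborn-type library. In the adult type its lowest, median and highest levels were 0, 0.139 and 0.653 CPM, with no count in TCDD male pup 8, TCDD female pup 6 and control dam 5. In the newborn type they were 3.9, 5.94 and 7.12 CPM. The types did not overlap, and the adult type held 29 counts in all against 1252 in the newborn type. The pooled ratio of adult to newborn type, from counts and totals summed over the libraries of a type, was 0.0408, with a 95% counting interval of 0.0272 to 0.0589. The difference was smaller relative to insulin. Slc2a2 had a median of 1.29 counts per 1000 insulin counts in the adult type (range 0 to 4.09) and 4.31 in the newborn type (range 3.02 to 6.88), and the ranges overlapped. The pooled ratio per insulin count was 0.397 (counting interval 0.265 to 0.572), and 0.293 without TCDD dam 11, which held 11 of the 29 adult-type counts. Slc2a2 is also a liver gene, and hepatocyte markers were lower in the adult type too. Of 10 markers, 9 were lower without overlap. Among all genes, 40.8% of those with a count and 76.2% of those with a mean of at least 1 CPM were lower in that way. The summed level of the hepatocyte markers was 0.313 to 12.6 CPM in the adult type and 839 to 2572 CPM in the newborn type. The adult-type libraries included some with no Alb count. Afp, which defines the types, is 1 of these markers. The part of hepatocyte RNA in the Slc2a2 level was not tested between types.

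G6pc2, the islet glucose-6-phosphatase, showed the same order of the types. It had 0.0612, 0.678 and 1.42 CPM at the lowest, median and highest adult-type library and 4.62, 7.71 and 11.6 CPM in the newborn type, without overlap. Its pooled ratio was 0.0806 (counting interval 0.064 to 0.1). Per 1000 insulin counts the types overlapped widely. The adult-type median was 5.24 (range 0.981 to 9.6) and the newborn-type median was 6.65 (range 3.19 to 9.99), with a pooled ratio of 0.784 (counting interval 0.622 to 0.976). The highest and lowest libraries of either type differed by more than the medians of the types did.

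Abcc8, the SUR1 subunit, was also lower in the adult type without overlap. Its lowest, median and highest levels were 0.59, 0.874 and 1.9 CPM in the adult type and 7.82, 13.1 and 21.7 CPM in the newborn type, for a pooled ratio of 0.0791 (counting interval 0.0659 to 0.0942). Per 1000 insulin counts the adult type had a median of 5.94 (range 4.83 to 30.4) and the newborn type a median of 10.3 (range 7.95 to 15.7). The pooled ratio per insulin count was 0.769 (counting interval 0.641 to 0.915), and 0.627 without TCDD dam 8, whose 30.4 counts per 1000 insulin counts stood apart from the next highest value of 13.1. That library had the fewest insulin counts of all, 1019. All 3 Abcc8 probes were lower by their pooled counts in the adult type, and the third probe, with 76 counts over all libraries, overlapped between types.

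Kcnj11, the pore subunit of the same channel, had few counts. Its 1 probe gave 0 to 3 counts in adult-type libraries and 1 to 9 in newborn-type libraries, 4 counts in all against 54. Counts were present in 2 of 8 adult-type libraries and in 14 of 14 newborn-type libraries. The levels, 0 to 0.178 CPM in the adult type and 0.0525 to 0.612 CPM in the newborn type, overlapped. The pooled ratio was 0.13 in CPM (counting interval 0.0343 to 0.354) and 1.27 per insulin count (0.334 to 3.44). Without TCDD dam 11, which held 3 of the 4 adult-type counts, these ratios were 0.0374 and 0.378. A difference between the types relative to insulin was not detectable with so few counts.

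Slc30a8, the granule zinc transporter, had 2 counts in the whole table, both in control female pup 2. It was at 0 in the other 21 libraries, where a count of 0 allows up to the floor of 3 counts. The 8 other zinc transporter genes listed were all detected, and 3 of them were lower in the adult type without overlap. Among all genes, 40.8% of those with a count and 76.2% of those with a mean of at least 1 CPM were lower in that way. Among the 3 transporters, Slc30a5 had a median of 31.5 CPM in the adult type and 103 CPM in the newborn type. Slc30a7 had 19.1 and 53.4 CPM in the same order. The list's median difference, -1.13 on the log2(CPM + 1) scale, was smaller in size than the -1.53 of all genes. Both proteins are known to carry zinc into the secretory pathway of many cell types.

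Mafa, the transcription factor, was low throughout. Its lowest, median and highest levels were 0, 0.124 and 0.297 CPM in the adult type and 0.201, 0.733 and 1.78 CPM in the newborn type, so that the types overlapped, with 19 counts in the adult type and 174 in the newborn type. The pooled ratio was 0.192 in CPM (counting interval 0.113 to 0.31). Relative to insulin it was 1.87 (counting interval 1.1 to 3.01, and 1.64 to 2.1 when any 1 library was left out). The counting interval included 2.63, the median ratio over genes with a mean of at least 1 CPM, a set that leaves out Mafa. The medians were 0.952 per 1000 insulin counts in the adult type (range 0 to 2.94) and 0.527 in the newborn type (range 0.213 to 1.26). The ranges overlapped, and control dam 5 had no Mafa count.

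Ucn3, the peptide marker, had 10 counts over the 8 adult-type libraries and 17 over the 14 newborn-type libraries. Its levels ran between 0 and 0.297 CPM in the adult type and between 0 and 0.315 CPM in the newborn type, and counts were present in 4 of 8 and in 8 of 14 libraries. The pooled ratio in CPM was 1.04 (counting interval 0.424 to 2.4). Per insulin count it was 10.1 (counting interval 4.12 to 23.3), and 6 without TCDD dam 11, which held 5 of the 10 adult-type counts. All values lay at or near the floor of 3 counts.

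Ero1lb, the ER oxidase, was the 1 gene of the 8 that was higher in the adult type without overlap. Its lowest, median and highest levels were 201, 238 and 306 CPM in the adult type and 121, 159 and 189 CPM in the newborn type, without overlap, with a ratio of medians of 1.5. The first of its 2 probes held 66799 of its 67789 counts. Per 1000 insulin counts the adult-type libraries had 864 to 4084 (median 1956) and the newborn-type libraries 91.0 to 248 (median 122), again without overlap. The pooled ratio per insulin count was 15.3 (counting interval 15 to 15.5), and 13.8 to 17.5 when any 1 library was left out. Acinar cell markers differed between the types as well. Of 12 acinar markers in the table, 6 were higher in the adult type without overlap and 1, Ctrb1, was lower. Of all genes with a count, 0.28% were higher and 40.8% were lower in that way. The summed level of the acinar markers was 151595 to 164488 CPM in the adult type and 51250 to 70055 CPM in the newborn type. Pnlip, which defines the types, is 1 of these markers. Of the 11 others, 5 were higher and 1 was lower, and their sum was 107904 to 118954 CPM in the adult type and 51209 to 70029 CPM in the newborn type. A relation within each type was added after the values were seen. Pearson's r of log2(CPM + 1) of Ero1lb with the summed acinar markers was -0.398 in the newborn type (permutation p = 0.16). In the adult type it was -0.0263 (exact permutation p = 0.948). The part of acinar RNA in the Ero1lb difference between types was not tested.

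**Figure D1:**
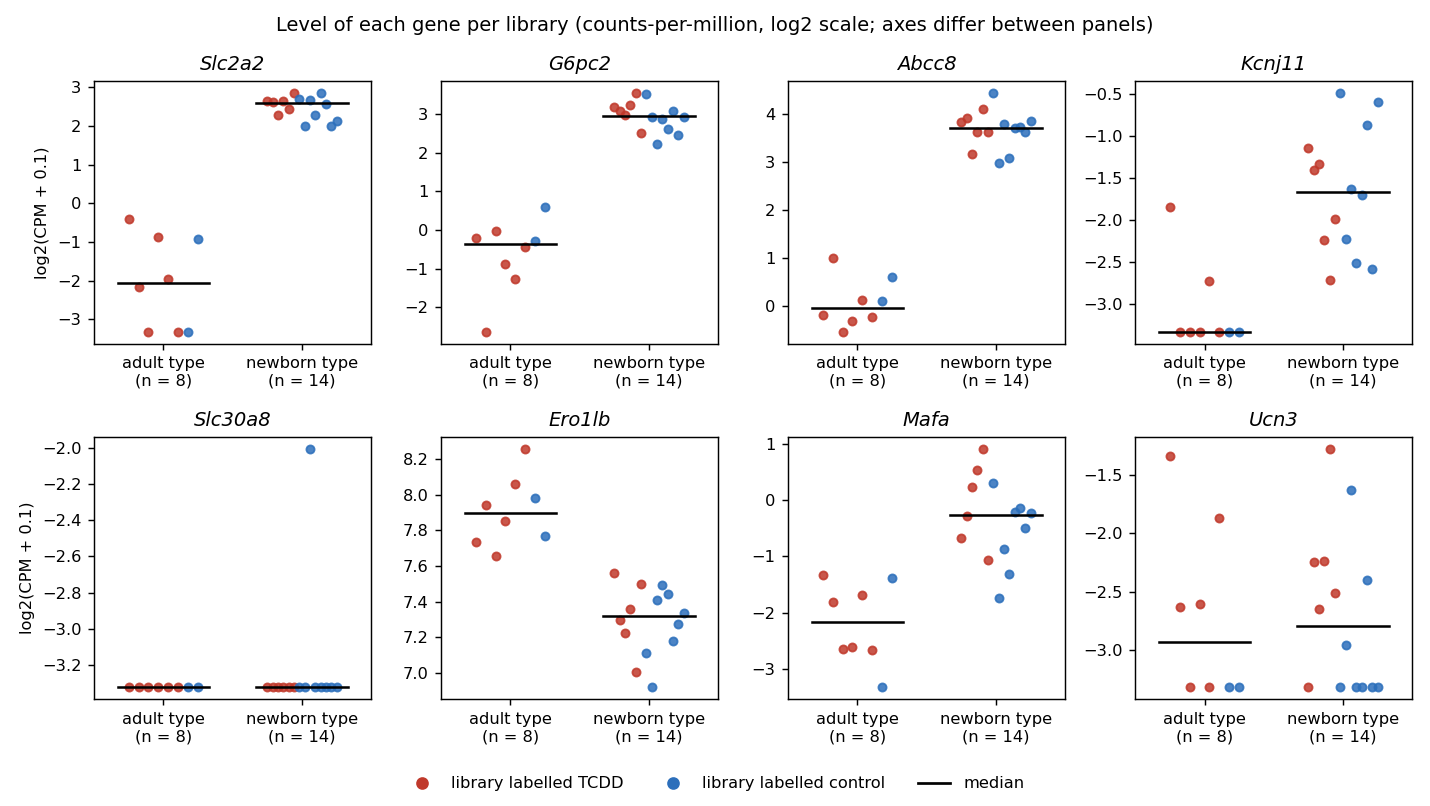
Level of each of the 8 genes in each library, as log2(CPM + 0.1), with adult-type libraries left and newborn-type libraries right in every panel, red for the TCDD label, blue for the control label and a black line at the median. Slc2a2, G6pc2 and Abcc8 lie lower and Ero1lb higher in the adult type without overlap, while Kcnj11, Mafa and Ucn3 overlap and Slc30a8 has counts in 1 library.

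**Figure D2:**
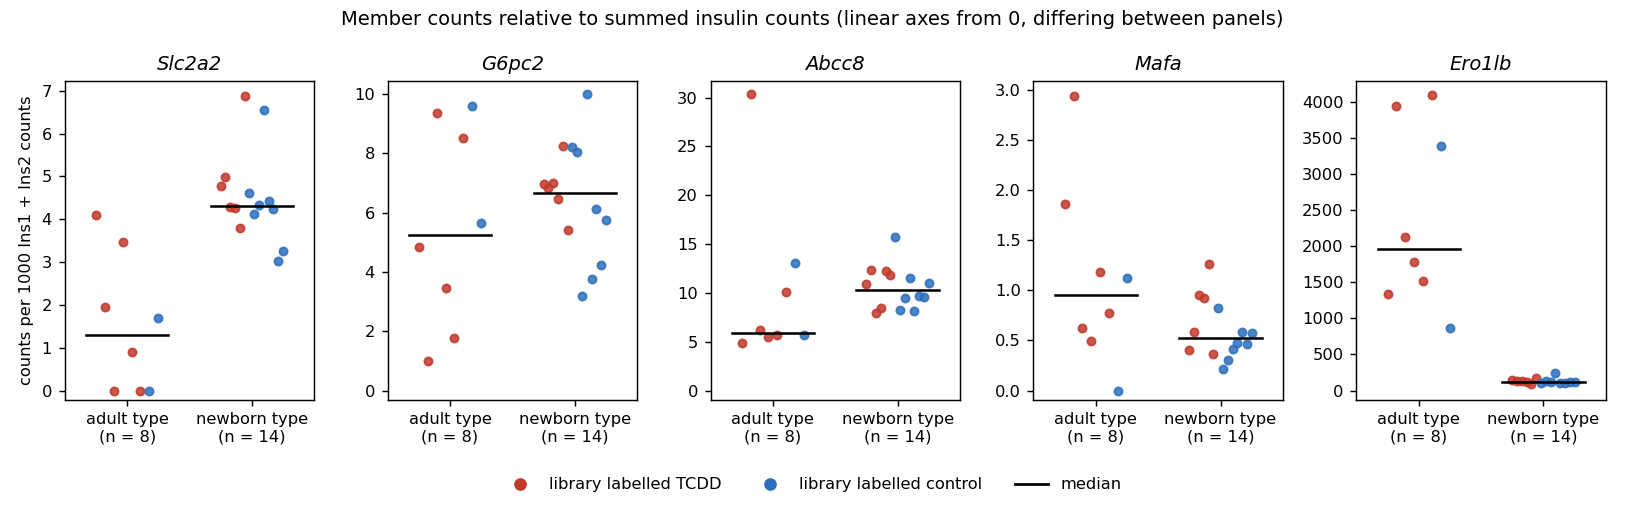
Counts per 1000 summed Ins1 and Ins2 counts for 5 genes, with adult-type libraries left and newborn-type libraries right, 1 point per library and a line at the median, on linear axes. Only the Ero1lb panel shows types without overlap, at 864 to 4084 in the adult type and 91.0 to 248 in the newborn type, and 1 adult-type library stands apart for Abcc8 at 30.4.

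These counts were read against all genes. By CPM, 3 of the 8 genes were lower in the adult type without overlap and 1 was higher. Of 21053 genes with at least 1 count, 40.8% were lower and 0.28% were higher in that way. Among the 10679 genes with a mean of at least 1 CPM, where 4 of the 8 genes lay, 76.2% were lower and 0.496% were higher. The share of lower genes among the 8 was thus not above the background. Relative to insulin, 0 of the 8 genes were lower and 1 was higher without overlap, against 0.964% and 14.3% of genes with a count, or 1.66% and 27.1% of those with a mean of at least 1 CPM. Of 10672 genes with a mean of at least 1 CPM and a count in both types, 85.9% had a ratio per insulin count above 1, and the median ratio was 2.63. After TMM scaling the ratio of medians, adult type over newborn type, was 0.106 for Slc2a2, 0.287 for G6pc2, 0.247 for Abcc8 and 5.53 for Ero1lb, beside 0.284 for insulin, and the same count of 3 lower and 1 higher was found. The pooled ratios per insulin count of 0.397 for Slc2a2, 0.784 for G6pc2 and 0.769 for Abcc8 lay below that median of 2.63. The ratio of 15.3 for Ero1lb lay above it. Mafa, Kcnj11 and Ucn3 had means under 1 CPM and are not in the set that gave the median. The counting intervals of Mafa (1.1 to 3.01) and Kcnj11 (0.334 to 3.44) included 2.63. Ucn3, with a ratio of 10.1, lay at or near the floor.

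The type matched the stage label in 4 dams of the adult type and 10 pups of the newborn type. Among these alone, 4 of 8 genes were lower in the adult type without overlap and 1 was higher. Mafa was the gene that no longer overlapped, by a narrow gap. Its highest dam had 0.297 CPM (TCDD dam 11, 5 counts) and its lowest pup 0.302 CPM (control female pup 4, 4 counts). The share of all genes without overlap was not computed for these libraries. The edgeR quasi-likelihood fit to these 14 libraries gave log2 fold changes of dams over pups, after TMM scaling, of -2.28 ± 0.40 (SE) for the first Slc2a2 probe, -1.47 ± 0.34 for G6pc2, -1.41 ± 0.24 for the first Abcc8 probe and -0.23 ± 0.61 for Mafa. For the 2 Ero1lb probes it gave 2.44 ± 0.11 and 2.42 ± 0.21. In that fit 49.7% of 17418 probes passed an adjusted p of 0.05, 22.2% higher and 27.5% lower in dams. The fold changes describe the type difference on another scale and carry no test here, since the libraries were kept by the genes that define the types. As labelled, with all 22 libraries, 0% of 16760 probes passed between dams and pups, 0 of the 7 probes of the 8 genes that could be tested among them (308 probes had an unadjusted p under 0.05, and DESeq2 called 4). Their log2 fold changes then lay between -0.25 and 0.40.

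Other genes of glucose sensing and coupling were measured from a list of 17, which leaves out the 8 genes. Of these, 5 were lower in the adult type without overlap and 0 were higher, while relative to insulin 0 were lower and 3 higher. Among all genes with a count, 40.8% were lower in CPM and 14.3% were higher per insulin count in that way. Among those with a mean of at least 1 CPM, these shares were 76.2% and 27.1%. The list's median difference on the log2(CPM + 1) scale was -0.54, against -1.53 over genes with a mean of at least 1 CPM. Trpm5, a calcium-activated cation channel of islet and taste cells, had a median of 0.793 CPM in the adult type and 11.7 CPM in the newborn type. Gpr119, a lipid receptor that raises cyclic AMP, had 0.0626 and 2.53 CPM in the same order. Pcx, pyruvate carboxylase, had 6.26 CPM in the adult type and 14.1 CPM in the newborn type.

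Of 21 genes of the insulin granule and of prohormone processing, 16 were lower in the adult type without overlap. Among all genes, 40.8% of those with a count and 76.2% of those with a mean of at least 1 CPM were lower in that way. Per insulin count 0 of the 21 were lower and 5 higher, against 14.3% and 27.1% higher in the same 2 sets of genes. The list's median difference was -1.56, against -0.70 over genes with a count and -1.53 over those with a mean of at least 1 CPM. Pcsk2, a prohormone convertase, had a median of 3.11 CPM in the adult type and 52.3 CPM in the newborn type, and Chga, a chromogranin of secretory granules, had 3.3 and 61 CPM in that order. Of 15 beta cell transcription factors with a count, 11 were lower and none was higher in CPM, with a median difference of -1.41. These are near the 76.2% and the -1.53 of genes with a mean of at least 1 CPM. Over all genes with a count, the share was 40.8% and the median difference -0.70. Neurod1, a basic helix-loop-helix factor that activates insulin genes, had medians of 1.26 CPM in the adult type and 24.4 CPM in the newborn type, and was the 1 factor of the list that was also lower per insulin count without overlap. Hnf4a, a nuclear receptor of liver, gut and islets, was the 1 factor higher per insulin count without overlap. Of 12 relatives of the 8 genes (among them other KATP subunits and glucose transporters), 5 were lower without overlap. That stands beside 40.8% of genes with a count and 76.2% of those with a mean of at least 1 CPM. The relatives' median difference of -0.60 was smaller in size than the -1.53 of genes with a mean of at least 1 CPM. Kcnj8, the pore subunit of vascular KATP channels, had 0.934 CPM in the adult type and 21.4 CPM in the newborn type. G6pc, the liver glucose-6-phosphatase, had 0 and 1.77 CPM.

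Genes that mature beta cells are known to keep low were lower in the adult type in 13 of 14 cases without overlap, and per insulin count 0 were lower and 1 higher. Among all genes, 40.8% of those with a count and 76.2% of those with a mean of at least 1 CPM were lower in that way. The list's median difference was -2.64, against -1.53 over genes with a mean of at least 1 CPM. The list includes Pdgfra, a growth factor receptor of mesenchyme, with medians of 3.46 CPM in the adult type and 65.8 CPM in the newborn type. Of 6 genes of immature islets, Pyy and Dlk1 were lower in the adult type without overlap on both scales. Among all genes with a count, 40.8% were lower in CPM and 0.964% per insulin count in that way. Among those with a mean of at least 1 CPM, these shares were 76.2% and 1.66%. Pyy, a gut and islet peptide, had a median of 0.419 CPM in the adult type and 25.7 CPM in the newborn type. Dlk1, an imprinted gene of fetal tissues, had 0.384 and 464 CPM. Of 18 ER oxidation and folding genes in the table, which share the compartment of the Ero1lb protein, 7 were lower and 0 were higher in CPM without overlap. As 0.496% of all genes with a mean of at least 1 CPM were higher in that way, a count of 0 says nothing particular about these 18. Creld2, an ER protein induced by ER stress, had a median of 148 CPM in the adult type and 132 CPM in the newborn type, with overlap. The list's median difference was -0.95, smaller in size than the -1.53 of all genes. Pdia3, a disulfide isomerase, had a median of 54.7 CPM in the adult type and 295 CPM in the newborn type. Relative to insulin 0 of the 18 were lower and 15 were higher, against 27.1% higher among all genes with a mean of at least 1 CPM. Pdia2, a disulfide isomerase of the pancreas, overlapped in CPM, with medians of 2805 in the adult type and 3142 in the newborn type, and it also stands on the acinar list.

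Within 1 type the question was whether the genes follow insulin from library to library. In the 14 newborn-type libraries, Pearson's r of log2(CPM + 1) with summed insulin was 0.694 for Abcc8 (permutation p = 0.00609, adjusted p = 0.346 over 11288 genes; Spearman's rho 0.512, permutation p = 0.0654). The points lay along a rising band, with control female pup 4 and control dam 4 lowest on both axes, and without these 2 libraries r was 0.38. The Abcc8 relation therefore rests in part on them. For Slc2a2 r was 0.424 (permutation p = 0.129, adjusted p = 0.608; rho 0.464, permutation p = 0.0972), and 0.162 without the same 2 libraries. For G6pc2 r was 0.109 (permutation p = 0.714, adjusted p = 0.941; rho 0.191, permutation p = 0.512) and for Ero1lb it was -0.0481 (permutation p = 0.873, adjusted p = 0.978; rho -0.0462, permutation p = 0.879), and without the 2 libraries these were 0.125 and -0.15. None of the 11288 genes passed, the background share is 0%, and the median r over genes was 0.157. All genes of a library share its total count. The permutations, here and in the adult type, treated libraries of a shared litter number as separate.

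With the summed hormone genes of the other islet cells (Gcg, Sst and Ppy), a relation added after the values were seen, Abcc8 had an r of 0.805 (permutation p = 0.00094, adjusted p = 0.114) and a rho of 0.815 (permutation p = 0.00057, adjusted p = 0.16). The median r over genes for this relation was 0.315, and 0 of 11288 genes passed. It was not recomputed without the libraries farthest from the median. Alpha and delta cells are known to carry KATP channels as well, and their part in this relation was not tested. With summed hepatocyte markers, Slc2a2 had an r of 0.191 (permutation p = 0.51, adjusted p = 1), and -0.242 without the 2 libraries farthest from the median. In the 8 adult-type libraries, Abcc8 had an r of -0.0441 with insulin (exact permutation p = 0.914) and Ero1lb of -0.388 (exact permutation p = 0.342), with adjusted p of 1 for both over 7867 genes, and without the farthest 2 libraries these were -0.605 and -0.575. The other 6 genes fell below the mean of 1 CPM that this test asked for in that type.

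**Figure D3:**
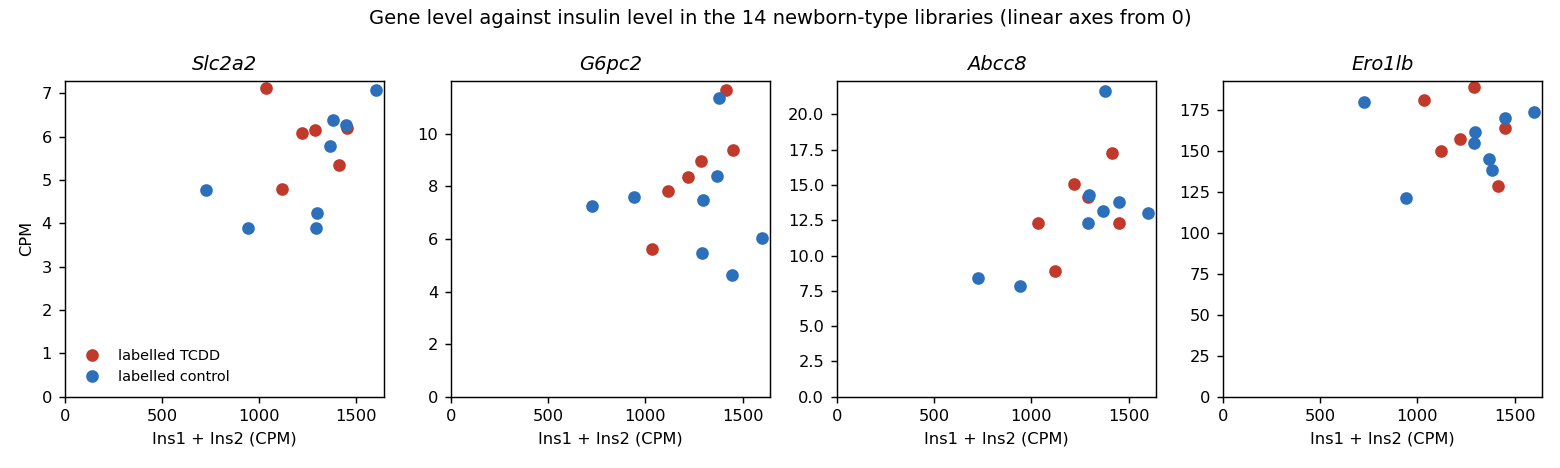
CPM of Slc2a2, G6pc2, Abcc8 and Ero1lb against summed Ins1 and Ins2 CPM in the 14 newborn-type libraries, 1 point per library, red for the TCDD label and blue for the control label, on linear axes from 0. Abcc8 has the highest r of the 4, 0.694, which is 0.38 without the 2 libraries lowest in insulin, and the red and blue points intermingle in all 4 panels.

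Among 7579 genes with a mean of at least 5 CPM, the gene most like each of the 4 by Pearson's r over the 14 newborn-type libraries was not an insulin gene. For Slc2a2 these were Wdr36 (r = 0.871) and Ak1 (0.852), for G6pc2 Prkd2 (0.796) and Rab11fip4 (0.795), for Abcc8 Esrp1 (0.896) and Tsen15 (0.882), and for Ero1lb Lrrn4 (0.878) and Cox6b1 (0.794). Ins2 ranked at 341 for Abcc8, 2292 for Slc2a2, 5069 for G6pc2 and 5730 for Ero1lb. Among themselves the 4 genes had r between -0.467, for G6pc2 with Ero1lb, and 0.485, for Slc2a2 with Abcc8. These are descriptions over 14 libraries, picked from all those genes.

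The effect of the TCDD label on the pups was tested on litter sums, the counts of male and female pup added, 4 TCDD litters against 3 control litters. Ero1lb was higher in TCDD litters, and it was the 1 called probe of the 9 that could be tested for these genes. Its first probe stood at 186, 186, 211 and 215 CPM in TCDD litters 10, 6, 8 and 11, and at 157, 165 and 165 CPM in control litters 2, 4 and 7. The groups did not overlap, and the means were 199 ± 15.5 CPM in TCDD litters and 162 ± 4.91 CPM in control litters (SD, n = 4 and 3). The log2 fold change after TMM scaling was 0.82 ± 0.10 (SE), with an adjusted p of 0.000116 by the edgeR quasi-likelihood test. Of 18578 probes tested, 1.83% passed (1.51% higher and 0.318% lower).

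Each TCDD litter held 1 adult-type library, and no control litter held any. Within TCDD litter 8 the male pup, of the adult type, had 304 CPM and the female pup, of the newborn type, 127 CPM. In TCDD litters 10 and 11 the adult-type male pups had 228 and 264 CPM and the newborn-type female pups 148 and 162 CPM. In TCDD litter 6 the adult-type female pup had 192 CPM and the newborn-type male pup 177 CPM. Without these 4 adult-type libraries the log2 fold change of the first Ero1lb probe was -0.22 ± 0.11 (adjusted p = 0.977, edgeR), and 0% of 18007 probes passed. The TCDD label and the library type cannot be told apart in the litters as labelled.

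**Figure D4:**
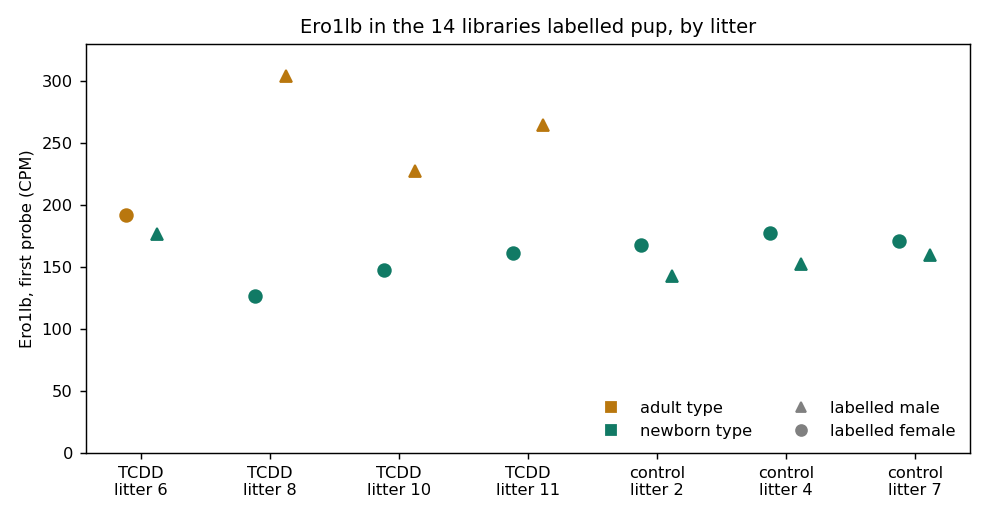
CPM of the first Ero1lb probe in the 14 libraries labelled pup, with TCDD litters left and control litters right, triangles for the male label, circles for the female label, brown for adult type and green for newborn type. The 4 adult-type libraries, 1 in each TCDD litter, lie between 192 and 304 CPM, above all newborn-type pups.

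The second Ero1lb probe, with 990 counts in all, had a log2 fold change of 1.28 ± 0.36 in the litters (adjusted p = 0.0937, edgeR), which did not pass. Its level was 2.1 to 6.77 CPM in TCDD litters and 1.84 to 2.07 CPM in control litters, and the highest value came from TCDD female pup 6 with 9.26 CPM. None of the probes of the other genes passed. The first Abcc8 probe had -0.41 ± 0.18 (adjusted p = 0.304), the first Slc2a2 probe -0.28 ± 0.19 (adjusted p = 0.567), Mafa 0.57 ± 0.49 (adjusted p = 0.661) and G6pc2 0.03 ± 0.21 (adjusted p = 0.971, all edgeR). Among the lists, 5 ER folding probes were higher in TCDD litters (Prdx4, Dnajc3, Dnajb9, Pdia2 and Creld2, with log2 fold changes of 0.52 to 0.81) and none was lower, of 27 tested. Prdx4 is an ER peroxiredoxin and Dnajb9 and Dnajc3 are co-chaperones of BiP. Of 16 acinar probes, 12 were higher, 2 of them of Pnlip, the gene that defines the types, and 10 of other genes. Of the zinc transporters, the probe of Slc39a14, a zinc importer, was higher (0.68 ± 0.16). The 3 probes of the lists that were lower were those of Scg5 of the granule list (-0.62 ± 0.14), Dlk1 of the immature islet list (-0.58 ± 0.12) and Cyp2e1 of the hepatocyte list (-0.54 ± 0.12). The median log2 fold change over all probes tested was 0.00 (-0.00188), that of the ER folding probes was 0.22 and that of the acinar probes was 1.19.

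Within the newborn type the TCDD label can be compared without a difference of type, in 6 TCDD and 8 control libraries. Here and in the adult type the chemical labels were taken as given. Stage labels conflict with stage genes, and whether the chemical labels are right was not tested. None of the 17109 probes passed (0%; 554 had an unadjusted p under 0.05, and DESeq2 called 0), and so none of the 7 probes of these genes did. In both types some libraries shared a litter number. The fits held no litter block and counted each library as a replicate. Slc2a2 had 5.95 ± 0.797 CPM with the TCDD label and 5.29 ± 1.24 CPM with the control label (SD, n = 6 and 8), and its first probe had a log2 fold change of 0.06 ± 0.16. G6pc2 had 8.63 ± 1.98 and 7.27 ± 2.07 CPM in that order, and 0.10 ± 0.18. Abcc8 had 13.3 ± 2.86 and 13.1 ± 4.24 CPM, with -0.11 ± 0.15 for the first probe and 0.27 ± 0.34 for the second. Both labels overlapped for all 3 genes. Ero1lb had 161 ± 21.8 CPM with the TCDD label and 155 ± 19.9 CPM with the control label, with -0.09 ± 0.11 and -0.09 ± 0.22 for its probes. Mafa had the widest interval, at 0.969 ± 0.532 and 0.625 ± 0.303 CPM and a log2 fold change of 0.56 ± 0.38. Adjusted p was 1 for every one of these probes by edgeR. With insulin counts as the scaling in place of TMM, the log2 fold changes of the 7 probes also had an adjusted p of 1, and that of Mafa was 0.67 ± 0.40.

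In the adult type, 6 TCDD and 2 control libraries, 0% of 13513 probes passed (388 had an unadjusted p under 0.05, and DESeq2 called 0). The 4 probes of these genes that could be tested had log2 fold changes of 0.20 ± 0.25 and 0.08 ± 0.41 for Ero1lb, -0.09 ± 0.55 for Abcc8 and -0.89 ± 0.70 for G6pc2, with adjusted p of 1 by edgeR. Ero1lb had 244 ± 38.3 CPM with the TCDD label and 235 ± 24.9 CPM with the control label (SD, n = 6 and 2). G6pc2 had 0.0612 to 0.885 CPM with the TCDD label and 0.716 and 1.42 CPM with the control label, and the groups overlapped. With only 2 control libraries the errors were wide.

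**Figure D5:**
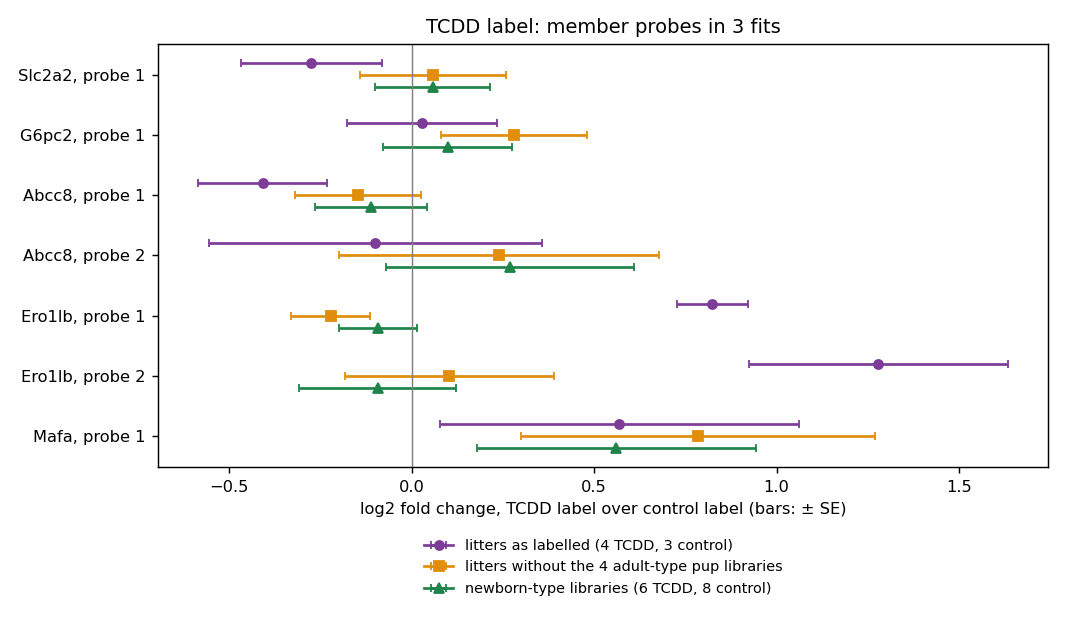
Log2 fold change of the TCDD label over the control label, with bars of ± SE, for 7 probes in the litters as labelled (purple circles), in the litters without the 4 adult-type pup libraries (orange squares) and in the newborn-type libraries (green triangles). The first Ero1lb probe is at 0.82 in the litters as labelled and at -0.22 and -0.09 in the other fits, while Mafa, with the longest bars of the 7 probes, is at 0.57, 0.79 and 0.56 in the same order of fits.

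By the labels, the dams gave 0% of 15594 probes passing between TCDD and control (150 had an unadjusted p under 0.05, and DESeq2 called 0). The 5 probes of these genes that could be tested had log2 fold changes between -0.41 and 0.21. Female pups likewise gave 0% of 17513 probes (299 under 0.05 unadjusted, and 0 by DESeq2), with values between -0.61 and 1.69 for 7 probes. In male pups 0% of 16176 probes passed by edgeR. There were 2703 probes with an unadjusted p under 0.05, and DESeq2 called 516. Without TCDD male pup 6, the 1 TCDD male pup of the newborn type, edgeR called 6451 of 15379 probes (41.9%), both Ero1lb probes among them. With all male pups the first Ero1lb probe had 2.41 ± 0.61 (adjusted p = 0.273, edgeR), and 3 of the 4 TCDD male pup libraries were of the adult type. Without those 3 it had -0.02 ± 0.17 (adjusted p = 0.984). For male against female pups, 0% of 16198 probes passed (696 under 0.05 unadjusted, and 0 by DESeq2). The first Ero1lb probe had 1.37 ± 0.57 (adjusted p = 0.891), and 0.01 ± 0.11 without the 4 adult-type pup libraries, of which 3 carried the male label and 1 the female label.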

How the data were processed

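RNA of whole pancreas was profiled with TempO-Seq (whole transcription panel for mouse) and sequenced on a NextSeq500, per the labels' protocols. The submitters' processing notes name bcl2fastq 2.17.1.14 for conversion of the reads. No aligner, counter or genome build is named, and these were not given in the sources used here. Values are raw probe counts as the authors deposited them, not normalized, in whole numbers with totals of 11223816 to 34911410 per library. Counts are reads and not molecules, since no molecular identifier is mentioned, and intervals and floors of 3 counts hold for counting error alone. Each probe reads a short target, so that similar genes such as Ins1 and Ins2 can share signal.

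The genes and the lists were chosen with earlier results of these data known. Groups are those of the labelled stage, sex and chemical, and library type is summed Afp above or below summed Pnlip. Replicates of a group are separate animals by the labels, and all pairs within a group differed by more than sampling noise (chi-square per degree of freedom at least 8.09). Tests were fitted per probe over the whole table with edgeR 4.0.16 in R 4.3.3, by its quasi-likelihood test after filterByExpr and TMM scaling, and Benjamini-Hochberg adjustment at 0.05, each fit holding the libraries of its comparison. Of the 12 probes, 4 to 9 passed filterByExpr depending on the comparison, and Kcnj11, Slc30a8 and Ucn3 passed in none. Correlations used log2(CPM + 1) within a type, over genes with a mean of at least 1 CPM, with two-sided permutation p (100000 shuffles for 14 libraries, exact enumeration for 8) adjusted over all such genes. Pooled ratios carry exact (Clopper-Pearson) 95% intervals. Alternatives were DESeq2 1.42.0, RLE factors, no low-count filter, counts summed over probes, insulin scaling, leaving out each replicate, and, added after the values were seen, leaving out libraries whose type goes against the stage label. The fit and the correlation were tested on simulated data. Promoters were matched by symbol, with numpy 2.4.6, pandas 2.3.3 and scipy 1.17.1 used for tables.

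The genes named are the 8 genes, up to 4 per list with the largest difference of median log2(CPM + 1) between types, the 2 genes most like each gene, and called probes. Ctrb1, Pdia2, Pdx1 and Hnf4a were named outside that rule, after their values were seen. The labels say that a number marks a shared litter. The 2 pups of a litter deviated from their group means with correlations of -0.752 to 0.0528 over 7 litters. Each TCDD litter held 1 library of each type, so its correlation cannot separate a shared litter from the type. In control litters 2, 4 and 7, all of the newborn type, the correlations were -0.0322, 0.0226 and 0.0528.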

Additional observations from a re-analysis of the deposited data

Results flagged for a closer look

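Of 42 sets of values of these genes, 12 had 1 library or litter far from the rest of its group by the gap to its neighbour over the group's range. Chance alone flags about 1 in 20 groups, and many sets here hold few counts or share libraries. Causes were not tested.

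In the adult type, TCDD dam 11 stood apart for Kcnj11 at 0.178 CPM (next 0.0522 CPM), also among the libraries with the TCDD label alone, and at 1.12 counts per 1000 insulin counts (next 0.297). It also held the 1 adult-type count of the third Abcc8 probe, at 0.0594 CPM (next 0 CPM). TCDD dam 8 stood apart for Abcc8 at 30.4 counts per 1000 insulin counts (next 13.1) and, among adult-type libraries with the TCDD label, at 1.9 CPM (next 0.992 CPM). TCDD female pup 6 stood apart for the second Ero1lb probe at 9.26 CPM (next 3.65 CPM), which made the sum of TCDD litter 6 stand apart among TCDD litters at 6.77 CPM (next 2.29 CPM). In that library the second probe had 4.82% of the count of the first, against at most 1.59% in the other adult-type libraries.

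In the newborn type, TCDD female pup 8 stood apart among TCDD labels for Ucn3 at 0.315 CPM (next 0.112 CPM). Among control labels, control dam 2 stood apart for Abcc8 at 21.7 CPM (next 14.3 CPM), and control female pup 2 for Slc30a8 at 0.149 CPM (next 0 CPM) and for Ucn3 at 0.224 CPM (next 0.0891 CPM).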

How the results depend on the processing

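The counts of genes by library type were within 1.5 times of those reported under TMM scaling, Ins1 or Ins2 alone, the probe with the highest mean count, and without type-discordant libraries. For the TCDD label, male pups gave 516 called probes by DESeq2, 3 without the type-discordant libraries and 0 to 6451 when 1 replicate was left out, with 6451 without TCDD male pup 6. There Ero1lb was called at 2.76 and 2.52 for its probes. Litters gave 614 by DESeq2, 733 with no low-count filter, 139 to 368 when 1 litter was left out (139 without control litter 2, 185 without control litter 4 and 155 without control litter 7) and 0 without the type-discordant libraries. The second Ero1lb probe was called in the litters by DESeq2 (adjusted p = 0.00924), with no filter (0.000324) and without TCDD litter 8 (0.0472). Adult-type libraries gave 112 with no filter, 5 with insulin scaling and 0 to 2 when 1 control dam was left out, and dams against pups gave 4 by DESeq2, 15 with no filter and 8654 without type-discordant libraries.

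Signs turned in 19 cases. In the litters without type-discordant libraries, the log2 fold changes were 0.24 for the second Abcc8 probe, -0.22 for the first Ero1lb probe and 0.058 for Slc2a2. With 1 litter left out, the second Abcc8 probe ran from -0.35 to 0.16 and G6pc2 from -0.13 to 0.20. Insulin scaling gave 0.032 for the first Abcc8 probe and 0.052 for the second Ero1lb probe in the newborn type, and 0.26 for Abcc8 in the adult type. With 1 control dam left out, the adult type ran from -0.34 to 0.22 for Abcc8, from -0.041 to 0.48 for the first and from -0.11 to 0.28 for the second Ero1lb probe, the other sign each time without control dam 7. Male pups without type-discordant libraries gave -0.017 for the first Ero1lb probe. Correlations with insulin turned for Ero1lb under TMM scaling (0.0159 in the newborn type, 0.00324 in the adult type) and for Abcc8 in the adult type (0.0232 under TMM scaling, 0.0263 with Ins2 alone). The causes were not tested.

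With the litter number as a block, male against female pups and dams against pups again gave 0 called probes. No other comparison was fitted with that block. Low counts limit Kcnj11, Slc30a8 and Ucn3, which had at most 3 counts in most libraries. They also limit Mafa in the adult type, where 5 of 8 libraries had at most 3 counts. Whether depth, probe efficiency or a low transcript level gave these counts was not tested.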

Other observations

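The other islet hormone genes were lower in the adult type, as most genes were. Gcg, glucagon of alpha cells, had a median of 17.7 CPM in the adult type and 219 CPM in the newborn type. Sst, somatostatin of delta cells, had 7.3 CPM in the adult type and 96.1 CPM in the newborn type, and Ppy, pancreatic polypeptide, had 7.06 and 119 CPM in that order. All 3 were lower in the adult type without overlap in CPM and overlapped per insulin count. Gc, a vitamin D binding protein of alpha cells and liver, was lower on both scales, at 0.414 and 26.3 CPM. Of 6 duct cell markers, 5 were lower in the adult type without overlap. Among all genes, 40.8% of those with a count and 76.2% of those with a mean of at least 1 CPM were lower in that way. The summed level of the duct cell markers was 26.5 to 54.6 CPM in the adult type and 375 to 707 CPM in the newborn type.

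Markers of neighbouring tissues were read in the same libraries. Summed intestine markers stood at 0.313 to 1.43 CPM in the adult type and 26.2 to 389 CPM in the newborn type, muscle markers at 0.832 to 6.19 and 25.3 to 66 CPM, neuron markers at 1.04 to 3.67 and 25.8 to 141 CPM, and kidney tubule markers at 0 to 1.13 and 0.0286 to 1.19 CPM, in the same order. Pdx1, a defining marker of beta cells, was at 0 in all 22 libraries. The newborn-type libraries among them held 9606 to 32917 insulin counts each. Whether the Pdx1 probe reads its transcript was not tested.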
